A study of Mus musculus with 5 samples.

Results

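Distal intergenic REST sites of the E13.5 mouse pancreas were defined as regions with a called peak in both E13.5 libraries, more than 5 kb from every protein-coding transcription start and with their midpoint outside all protein-coding gene bodies. There were 472 of them among 1183 sites shared by both E13.5 lists on assembled chromosomes (39.9%), and among 1860 sites over all lists of the series. The other shared sites were 334 distal intragenic and 377 promoter-proximal sites (within 5 kb of a start). Because E13.5 peaks chose these sites, their E13.5 values are given as a description only. Coordinates and annotation are mm9 and GENCODE vM1, and distances run from the site midpoint to the nearest protein-coding start.

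REST binds DNA through its zinc fingers at an element known as RE1 and brings in corepressors that close chromatin. Its best-known role is to silence neuronal genes outside the nervous system. In the pancreas it is made by progenitors and duct cells, and in the early embryonic organ also by mesenchymal cells. Endocrine cells, in contrast, use many of the genes that it represses.

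REST was measured by ChIP-seq with the 12C11 antibody in whole pancreas of untreated wild-type embryos on a mixed strain with C57BL/6. Each of the 3 libraries at E18.5 (A, B and C) pooled 3 to 4 pancreases. Each of the 2 libraries at E13.5 (A and B) pooled 4 to 6. The E18.5 lists held 541 peaks in A, 417 in B and fewer in C, and the E13.5 lists held 1400 and 1333, with median lengths of 161 bp in A and 483 bp in B. The organ holds many cell types, so the cells that carried a site cannot be told apart, and peak lists hold no expression with which to check tissue markers. Read depth is unknown, and a site without a peak was not called in that library, so absent binding was not shown.

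An RE1 consensus of 21 bp was learned from the 711 shared sites that are not distal intergenic and searched in the 500 bp around each peak. Its positions are counted from 1 at the 5′ end. The elements below are shown because they carry the main contrast, from perfect to weak matches. Capitals mark bases that match the consensus, and each element is read 5′ to 3′ on the strand given.
RE1 consensus: TTCAGCACCACGGACAGCGCC
Rapgef1, 45.9 kb upstream (chr2:29429290-29429310, plus strand): TTCAGCACCACGGACAGCGCC
Prdm11, 25.7 kb upstream (chr2:92911997-92912017, minus strand): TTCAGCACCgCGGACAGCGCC
Syt2, 44.3 kb upstream (chr1:136561582-136561602, plus strand): TTCAGCACCACGGACAGCaCC
Lhx5, 7.7 kb upstream (chr5:120874195-120874215, plus strand): TTCAGCACCgCGGACAGCtCC
Kcnk9, 22.4 kb upstream (chr15:72399135-72399155, minus strand): cTCAGCACCgtGGACAGCGCC
Pdyn, 16.0 kb upstream (chr2:129541605-129541625, minus strand): TgCAGCACCAtGGACAGCGCa
Lhx2, 65.6 kb downstream (chr2:38273649-38273669, plus strand): aTCAGaACCACGGACAGCaaC
Pbx3, 122.6 kb downstream (chr2:33946267-33946287, plus strand): aTCAGgACtgCGGACAGCGaC

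An RE1 with at most 5 mismatches lay in 307 of the 472 distal intergenic sites (65.0%, 95% interval 60.6 to 69.3), against 64.6% of all 1183 shared sites. It was absent from all 472 windows placed 10 kb away, which allows a share of up to 0.636%. Of every 500-bp tile of distal intergenic sequence in the genome, 0.0721% held a match (2120 of 2940581). The matches had 0 mismatches in 2 sites, 1 in 9, 2 in 38, 3 in 61, 4 in 98 and 5 in 99. Their centres lay a median of 10 bp from the peak centre, and 293 of 307 (95.4%) were within 50 bp. The element thus sat near the peak centre.

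The share of sites with an RE1 did not differ beyond counting error between distal intergenic sites and either of the other classes. It was 65.0% for distal intergenic and 58.9% for promoter-proximal sites (222 of 377), an odds ratio of 1.30 (0.973 to 1.73), with an adjusted p of 0.0997 in a two-sided Fisher exact test. Against distal intragenic sites, where 235 of 334 (70.4%) had a match, the odds ratio was 0.784 (0.573 to 1.07), with an adjusted p of 0.128 in the same exact test. Benjamini-Hochberg adjustment covered the 4 class comparisons of RE1 and E18.5 calls, and sites are not replicates, so these tests describe these libraries. Within quintiles of E13.5 rank, the comparison with promoter-proximal sites gave an odds ratio of 1.49 (1.10 to 2.03) and an adjusted p of 0.0351 in an exact stratified test.

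A second form of RE1 holds both arms of the element on one strand at another spacing than the 2 bp of the consensus. The arms searched were TTCAGCACC with at most 1 mismatch and GGACAGCGCC with at most 2. Among sites with no 21-bp match, 53 distal intergenic sites (11.2% of 472) had such a split RE1, against 12.3% of all shared sites and 3 of 472 windows 10 kb away. By class, it was 67 of 377 promoter-proximal (17.8%) and 25 of 334 distal intragenic sites (7.49%), and these differences were not tested. The gap was 7 bp in 9 sites, 8 bp in 21 and 9 bp in 9, so 39 of the 53 fell in this narrow range, and another 9 had a gap of 0 or 1 bp. The examples below, chosen after their values were seen, are high-ranked sites with gaps of 7, 8 and 0 bp, and the site near Lep, whose arms are both perfect. Capitals mark bases of the arms that match, and the stretch between the arms is in lower case.
Rph3a, gap of 7 bp (chr5:121528753-121528778, minus strand): TTCAGCACtgccaggaGGACAGCtCC
Fem1a, gap of 8 bp (chr17:56381633-56381659, plus strand): TTCAGCACCaggatttcGGACAGCtCC
Kcnj6, gap of 0 bp (chr16:95315567-95315585, minus strand): TTCAGCACtGGACAGCagC
Lep, gap of 7 bp (chr6:28932602-28932627, plus strand): TTCAGCACCtcggcgtGGACAGCGCC

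A position in the right arm differed between the forms. The substitution G19T (the consensus base, the position, then the base of the site) was carried by 35 of 49 split elements (71.4%), against 85 of 299 full-length matches (28.4%). These counts leave out chromosome 18, and they are a description, since both forms were picked by their likeness to the consensus. The limits also differed, with at most 2 mismatches in the right arm of split elements and at most 5 over 21 bp in full-length matches. The Rph3a and Fem1a elements above carry it, and the Lep element does not.

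The remaining 112 sites (23.7%) had neither form. Of these, 60 (53.6%) had an arm of the element in the central 200 bp. It was the right arm in 50 sites and the left arm in 16, with some sites holding both. Of the windows 10 kb away from all 472 sites, 4.66% had either arm with at most 1 mismatch in it. For the right arm this limit is stricter than in the search for split RE1s.

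The converse question is how many of the genome's RE1 matches in distal intergenic sequence lay in a site of both E13.5 lists. Both matches with 0 mismatches did, as did 9 of 9 with 1, 38 of 43 with 2 (88.4%), 61 of 85 with 3 (71.8%), 104 of 278 with 4 (37.4%) and 116 of 1736 with 5 (6.68%). Distal intragenic matches gave 25 of 27 (92.6%), 66 of 90 (73.3%), 95 of 269 (35.3%) and 67 of 1354 (4.95%) at 2, 3, 4 and 5 mismatches. For promoter-proximal matches these were 39 of 40 (97.5%), 69 of 89 (77.5%), 61 of 148 (41.2%) and 73 of 762 (9.58%). The share thus fell from 2 to 5 mismatches in all 3 kinds of sequence, and good matches far from genes were occupied too.

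The share also went with the positions that were changed. The 9 positions of the consensus (3, 4, 5, 7, 8, 12, 13, 16 and 17), each with at least 1.8 bits of information in the other site classes, were taken as the core. Among distal intergenic matches with 5 mismatches, 92 of 259 (35.5%, 29.7 to 41.7) with an intact core lay in a site. With 1 core mismatch this was 21 of 453 (4.64%, 2.89 to 6.999), and with 2 or more it was 3 of 1024 (0.293%, 0.0605 to 0.854). At 4 mismatches the shares were 93 of 145 (64.1%), 10 of 72 (13.9%) and 1 of 61 (1.64%). A mismatch at position 7 or position 8 was never seen in an occupied match with 5 mismatches (0 of 248 and 0 of 344, which allow shares of up to 1.21% and 0.872%). At position 11, between the arms, 99 of 950 mismatched matches (10.4%) were occupied. No test was made on these shares, because the E13.5 calls define the sites.

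**Figure D1:**
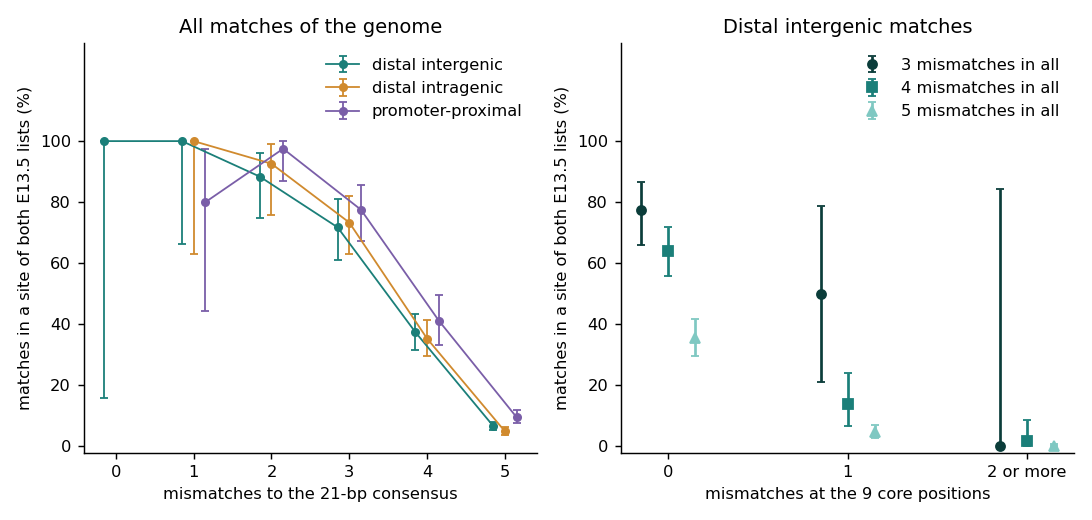
Share of the genome's RE1 matches that lie in a site called in both E13.5 libraries, in percent, with exact 95% intervals. Left, by mismatches to the consensus for matches in distal intergenic, distal intragenic and promoter-proximal sequence, where all 3 curves fall to under 10% at 5 mismatches. Right, distal intergenic matches by mismatches at the 9 core positions, where matches with 5 mismatches fall to 35.5%, 4.64% and 0.293% as core mismatches go up.

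In all, 122 of the 139 distal intergenic matches with 0 to 3 mismatches lay in a peak of at least 1 library, and 17 lay in none. The pair with only 2 mismatches is shown because both have an intact core and a sequence that occurs once in the genome. Both are changed at position 14, which lies outside the core (1.427 bits). Among distal intergenic matches with 4 mismatches, 4 of 48 (8.33%) changed at position 14 lay in a site, against 43.5% of the others. With 5 mismatches it was 2.08% against 8.21%, and the part of this position in the pair was not tested.
Col16a1, 22.1 kb upstream, no peak (chr4:129702986-129703006, minus strand): TTCAGCACCACGGgCAGCaCC
Klf14, 94.2 kb upstream, no peak (chr6:31003135-31003155, minus strand): TTCAGCACCACGGtCAGaGCC
Their depth of coverage is unknown, so binding there was not called and cannot be said to be absent.

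Most RE1s of distal intergenic sites were unique sequences. Of the 307 elements, 258 occurred once in the genome and 49 more than once, with at most 4 copies. For 43 of these 49, every copy lay in a site of both E13.5 lists. The element near Syt2, which encodes a synaptic calcium sensor, is the same 21 bases as the one 176.9 kb upstream of Kcnd3, a voltage-gated potassium channel gene, and all 4 of its genomic copies lay in shared sites. Nonetheless the Syt2 site scored 6 in E18.5 A and 7 in C, with no peak in B, and had scores of 17 and 27 in E13.5 A and B. The Kcnd3 site had no peak in any E18.5 library, and scores of 14 and 21 in E13.5 A and B.

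Scores are the authors' whole numbers without a stated unit, so peaks were ranked by score within each library, as percentiles in which 100 is the highest. Over distal intergenic sites the score ran from 4 to 73 in E13.5 A (median 14) and from 6 to 119 in E13.5 B (median 17), and the scores of the 2 libraries had a Spearman correlation of 0.742 over 472 sites. The median of the mean E13.5 rank was 51.1 for distal intergenic, 49.4 for distal intragenic and 66.2 for promoter-proximal sites.

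The highest-ranked site of all was 22.4 kb upstream of Kcnk9, the gene of a background potassium channel (chr15:72398824-72399480). It scored 26, 9 and 30 in E18.5 A, B and C, and 70 and 119 in E13.5 A and B. Next came a site 5.23 kb upstream of 2310047B19Rik (chr9:21754680-21755251), with 16, 19 and 26 at E18.5 and 73 and 76 at E13.5. Both had an RE1, with 3 and 4 mismatches.

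High-ranked sites without the full-length element stood beside them. The third site lay in a gene desert between Lrrn3 and Dnajb9, 1237 kb from the nearest start (chr12:44073653-44074227), and its best match had 7 mismatches. It scored 10, 7 and 17 in the E18.5 libraries and 58 and 71 in the E13.5 libraries. The site between Gm5614 and Cdon, a cell-surface Hedgehog coreceptor gene (chr9:35112597-35113318), had no match closer than 10 mismatches. Its scores of 106, 57 and 98 in E18.5 A, B and C were the highest of any distal intergenic site there, the next highest being 26, 19 and 30, and at E13.5 it scored 37 and 103. It had no split RE1 either. No filter for regions prone to mapping artefacts was applied to the lists here, and whether this peak reflects REST binding was not tested.

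Of the 12 highest-ranked sites, 6 had a full-length RE1, 2 a split RE1 and 4 neither, and 8 were called in all 5 libraries and the other 4 in 2 E18.5 libraries. Of all shared sites, 64.6% had a full-length RE1, 12.3% a split RE1 and 9.3% a peak in all 3 E18.5 libraries. In the highest quintile of E13.5 rank, 63.2% of distal intergenic sites had a full-length RE1 and 89.7% a peak in any E18.5 library. The fourth was 12.4 kb upstream of Igsf21, a synaptic adhesion gene, with scores of 7, 7 and 13 at E18.5 and 48 and 71 at E13.5. The seventh was 122.6 kb downstream of the start of Pbx3, a homeodomain factor gene (chr2:33945991-33946645), inside the non-coding transcript C230014O12Rik. It scored 19, 11 and 23 at E18.5 and 39 and 68 at E13.5. Sites near C1qa (25.9 kb upstream), Nphp4 (315.2 kb downstream), Herc1 (43.0 kb upstream), Matn1 (171.1 kb downstream) and Galr1 (12.2 kb upstream), the gene of a galanin receptor, filled the ranks between 97.1 and 97.9.

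**Figure D2:**
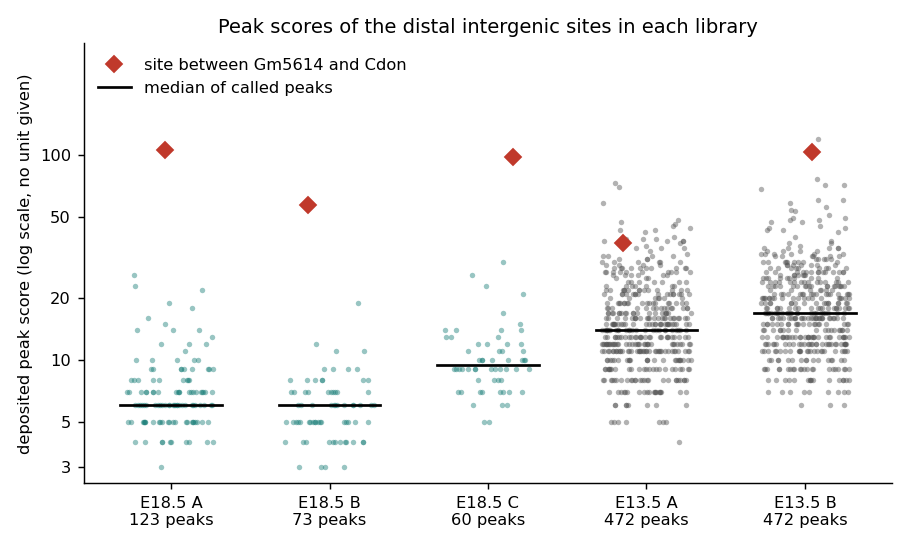
Deposited peak scores on a log axis for the distal intergenic sites called in each library, with 123, 73 and 60 peaks in E18.5 A, B and C and 472 in each E13.5 library. Points are sites, lines are medians, and the diamond is the site between Gm5614 and Cdon, which stands apart from the other sites in all 3 E18.5 libraries.

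The nearest protein-coding genes came from many families. Of 472 sites, 64 (13.6%) were nearest to a gene of 8 listed families. Besides neuronal and developmental genes, these hold 353 solute carriers, taken by symbol whatever their tissue. The 8 families make up 4.87% of protein-coding genes but lie nearest to 11.5% of distal intergenic bases. No test was made, because the lists were chosen with results of these data known. A nearest gene is a label of position and was not shown here to be a target. Counts within a family are small, were not tested, and stand against the 64.6% of all shared sites with an RE1 and the 40.3% with an E18.5 peak.

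Developmental transcription factors were the largest group, with 24 sites at 21 genes (5.08% of sites, against 2.27% of distal intergenic bases). Of these 24 sites 18 had an RE1, against 64.6% of all shared sites, and 10 were called at E18.5, a share near the 40.3% of all shared sites. The Lhx2 site, near a LIM-homeodomain gene of forebrain and eye, scored 9, 7 and 14 in the E18.5 libraries and 32 and 47 in the E13.5 libraries. The site of its relative Lhx5, 7.7 kb upstream, scored 6 and 7 in E18.5 A and B with no peak in C, and 28 and 38 at E13.5. The site 63.5 kb upstream of Pax2, a gene of kidney and midbrain development, was again called in all libraries, with 9, 5 and 8 at E18.5 and 26 and 23 at E13.5.

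Another site of this group lay 16.4 kb upstream of Ptf1a, which specifies the pancreas and its acinar cells (chr2:19350724-19351083). It had an RE1 with 3 mismatches, no E18.5 peak, and scores of 23 and 13 in E13.5 A and B. This site and the Pcsk2 site below were chosen for the pancreatic roles of their genes after the values were seen. The site nearest to the 5 kb limit, 5085 bp from the start of Pou4f2, scored 12 and 17 at E13.5, and the next, 5133 bp from Pcdh1, scored 19 and 24. Just inside the limit, and so counted as promoter-proximal, were sites 4986 bp from Rap1gap2 (10 and 12) and 4984 bp from Armc8 (19 and 16).

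Ion channel genes accounted for 14 sites. Potassium channels had 8 (1.69%, against 0.951% of bases), of which 5 had an RE1 and 3 an E18.5 peak, both near the shares of all shared sites (64.6% and 40.3%). After Kcnk9 the highest was 96.3 kb upstream of Kcnj6, a G-protein-gated channel gene, with 15, 9 and 9 at E18.5 and 39 and 53 at E13.5. A site 6.01 kb upstream of Kcnh2, the gene of a cardiac delayed rectifier, scored 6 in E18.5 A and 11 in C, with no peak in B, and 29 and 31 at E13.5. Calcium and sodium channel genes had 6 sites (1.27%, against 0.116% of bases), led by one 9.41 kb upstream of the T-type channel gene Cacna1i, with 14 and 11 in E18.5 A and B, no peak in C, and 26 and 30 at E13.5. Sites near Cacng5 and Cacng4, whose products accompany AMPA receptors, followed at ranks 68.6 and 55.1.

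Receptor, vesicle and transporter genes had smaller numbers. Glutamate receptor genes had 4 sites, of which 4 had an RE1 (64.6% of all shared sites) and 0 were called at E18.5 (40.3% of all shared sites), too few to set the family apart. They were led by the pair flanking the kainate receptor gene Grik3 (27 and 24, and 16 and 23, in E13.5 A and B). The AMPA receptor gene Gria1 had one 199.1 kb upstream, with scores of 16 and 17 at E13.5. Both sites of the group of GABA, glycine and nicotinic receptors were upstream of the glycine receptor gene Glra1, at ranks 56.4 and 19.5, and neither was called at E18.5.

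Vesicle and granule genes had 4 sites, a pair of them upstream of Rph3a, which encodes a Rab-binding exocytosis protein. The Rph3a site 69.2 kb upstream, with the split element printed above, scored 12, 6 and 14 at E18.5 and 47 and 47 at E13.5. Its neighbour 59.4 kb upstream has a full-length RE1 with 4 mismatches, had no E18.5 peak, and scored 20 and 26 at E13.5. At 9.43 kb upstream of Pcsk2, which encodes a prohormone convertase of islet cells, a low-ranked site (28.4) with 3 mismatches had no E18.5 peak and scored 11 and 12 at E13.5.

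Solute carriers had 7 sites (1.48%, against 1.32% of bases), of which 7 had an RE1, against 64.6% of all shared sites, led by one 25.96 kb upstream of the vesicular GABA transporter gene Slc32a1 (no E18.5 peak, 22 and 24 at E13.5). A site 7.28 kb upstream of the monoamine transporter gene Slc29a4 scored 9 in E18.5 A and 11 in C, with no peak in B, and 24 and 21 at E13.5. Adhesion and axon guidance genes had 9 sites, or 1.91%, against 5.51% of distal intergenic bases, and 1 of them was called at E18.5, against 40.3% of all shared sites, with no test of the difference. The first was 84.98 kb upstream of Nrxn3, a presynaptic neurexin gene, with no E18.5 peak, 19 and 25 at E13.5, and an RE1 with 2 mismatches. This was the one family whose share of sites was below its share of bases, and with genes assigned by regulatory domain it was 4.66%.

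MicroRNAs, short RNAs that repress messages carrying a match to their seed, had 18 sites within 25 kb of one of their genes. Of these 18, 8 had a full-length RE1, 6 a split RE1 and 9 an E18.5 peak, against 64.6%, 12.3% and 40.3% of all shared sites, and these differences were not tested. The mature microRNAs of the closest named genes in the RefSeq table (GRCm38.p6) are shown with the seed, bases 2 to 8, in capitals. Of the 17 microRNA genes within that distance, 5 had an entry there and 4 a mature sequence. The 3 seeds differ.
mmu-miR-7b-5p: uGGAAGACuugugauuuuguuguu
mmu-miR-137-3p: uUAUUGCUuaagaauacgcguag
mmu-miR-129-5p: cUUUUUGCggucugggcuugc
Mir7b, whose microRNA is abundant in endocrine and neural cells, had a site 0.812 kb away (chr17:56381299-56381900), which is the Fem1a site with the split element above. It was the strongest of the 18, with 14, 7 and 12 in the E18.5 libraries and 37 and 60 in the E13.5 libraries. The site 2.25 kb from Mir137, a microRNA of neurons, scored 6 and 5 in E18.5 A and B with no peak in C, and 32 and 28 at E13.5, and its RE1 is split with a gap of 9 bp. The site 4.09 kb from Mir129-2 scored 5 in E18.5 B alone, and 14 and 25 at E13.5, and it too was split, with a gap of 9 bp.

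The neuronal microRNA miR-124 was represented at separate loci. A site 21.9 kb from Mir124a-1 scored 6 in E18.5 B alone and 29 and 27 at E13.5, and a site 0.428 kb from Mir124a-3 had no E18.5 peak and scored 17 and 12 at E13.5. Both had an RE1 with 4 mismatches. A pair of sites lay 12.7 and 19.4 kb from Mir133a-2, a muscle microRNA, neither of them called at E18.5. Further sites lay near Mir138-1, Mir466f-4, Mir1971 and microRNA genes known in the annotation only by clone names.

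Of the 472 sites, 353 had no other distal intergenic site within 100 kb, and 90 were in groups of 2. The other 29 formed 9 groups of 3 or more, the largest with 4 sites. Whether sites lay together more or less often than random placement would give was not tested. The group upstream of Igsf21 on chromosome 4 held 4 sites over both flanks of Gm9867, with ranks of 98.7, 86.0, 77.0 and 54.3, and the 3 highest were called at E18.5. The 4 sites between Pvrl1 and Thy1, a neuronal surface glycoprotein gene, had ranks from 14.1 to 90.1, and only the highest had an E18.5 peak, with a score of 10 in C.

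A group of 3 ran from Arf2 past Crhr1, a corticotropin-releasing hormone receptor gene, toward Mapt, the gene of the microtubule protein tau, with ranks of 86.5, 82.6 and 62.9. The 3 sites between Olfm4 and Pcdh17 had similar ranks, from 65.6 to 68.9, and 2 of them were called at E18.5. Upstream of Kcnj6 the 3 ranks were 96.7, 31.3 and 22.7, so that a strong site stood beside weak ones. The other groups lay near Zfp746, Lhx1, Gm7935 and Fam19a5.

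Distal intergenic sites lay a median of 66.4 kb from the nearest start (quartiles 22.4 and 163 kb), and 276 (58.5%) were upstream of it. There were 181 sites beyond 100 kb, and 4 beyond 1 Mb. The farthest was 1257 kb from the start of Diap3, with a mean rank of 6.25, then came the desert site near Dnajb9 with a rank of 99.1, and a site 1083 kb from Igsf11 with a rank of 8.73. Of the 472 midpoints, 27 fell inside an annotated non-coding gene, and 30 were within 5 kb of any annotated start.

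The density of distal intergenic sites was 0.321 per Mb of such sequence, against 0.401 for distal intragenic and 1.47 for promoter-proximal sequence. Over whole chromosomes it ran from 8.15 per 100 Mb on chromosome 3 to 31.2 on chromosome 11. None lay on the X chromosome, where 4 shared sites of other classes were called. The X held 54 distal intergenic RE1 matches, all with 4 or 5 mismatches, and none was in a shared site, which allows a share of up to 5.56%. The median GC content of the 500-bp window was 47.4% for distal intergenic, 48.6% for distal intragenic and 56.0% for promoter-proximal sites, with a median of 6, 6 and 19 CpG.

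Peaks at E18.5 were not used to choose the sites, so they can be compared between classes. At least 1 of the E18.5 libraries had a peak at 168 of 472 distal intergenic sites (35.6%, 31.3 to 40.1), against 40.3% of all 1183 shared sites. In promoter-proximal sites the share was 56.5% (213 of 377), giving an odds ratio of 0.426 (0.319 to 0.567) for distal intergenic against promoter-proximal sites, with an adjusted p of 5.41e-09 in a two-sided Fisher exact test. In distal intragenic sites the share was 28.7% (96 of 334), an odds ratio of 1.37 (1.002 to 1.88), which did not pass (adjusted p = 0.0951, same exact test). In pooled whole organs, fewer cells with bound REST and weaker binding in each cell cannot be told apart.

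Promoter-proximal sites had the highest share in each E18.5 library, and the distal intergenic and distal intragenic shares were close in B and C. In E18.5 A, 123 distal intergenic sites were called (26.1%), against 28.3% of all shared sites, 20.4% of distal intragenic and 38.2% of promoter-proximal sites. In E18.5 B it was 73 (15.5%), against 23.5% of all, 14.97% of distal intragenic and 41.1% of promoter-proximal sites. In E18.5 C it was 60 (12.7%), against 18.2% of all, 12.9% of distal intragenic and 29.7% of promoter-proximal sites. Distal intergenic sites were below promoter-proximal sites in 3 of 3 libraries, with the narrowest gap in A.

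All 3 E18.5 libraries together had a peak at 24 distal intergenic sites (5.08%), against 9.3% of all shared sites. Of these 24, 15 had a full-length RE1, a share near the 64.6% of all shared sites, and 17 were among the 22 highest E13.5 ranks. Peaks in 2 E18.5 libraries were found at 40 sites and in 1 library at 104. Of those 104, 67 were called in A alone, 24 in B alone and 13 in C alone.

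**Figure D3:**
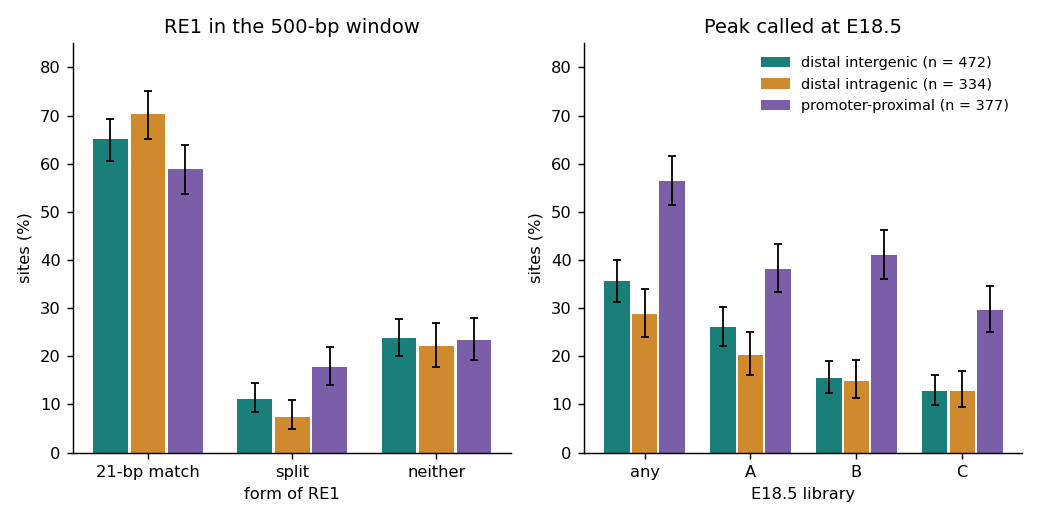
Percent of sites with each form of RE1 (left) and with a peak in any or each E18.5 library (right) for 472 distal intergenic, 334 distal intragenic and 377 promoter-proximal sites, with exact 95% intervals. Full-length RE1s were at 65.0% of distal intergenic, 70.4% of distal intragenic and 58.9% of promoter-proximal sites. Split RE1s were at 11.2%, 7.49% and 17.8% of these classes. Promoter-proximal sites were called most often in every E18.5 library.

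E18.5 calls were more frequent at high than at low E13.5 rank in each class. Over rising quintiles of mean rank, set over all shared sites, 8.18%, 14.2%, 36.9%, 52.9% and 89.7% of distal intergenic sites had an E18.5 peak. The distal intragenic shares were 7.23%, 5.48%, 28.6%, 45.2% and 83.3%, and the promoter-proximal shares were 13.6%, 24.6%, 35.2%, 64.1% and 92.9%. Only 68 distal intergenic sites (14.4%) were in the highest quintile, against 127 promoter-proximal sites (33.7%). With rank held in these strata, the odds ratio against promoter-proximal sites was 0.711 (0.496 to 1.02), and the call was lost (adjusted p = 0.0804, exact stratified test). Against distal intragenic sites it was 1.53 (1.04 to 2.26), which did not pass after adjustment (adjusted p = 0.0523, same exact test).

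**Figure D4:**
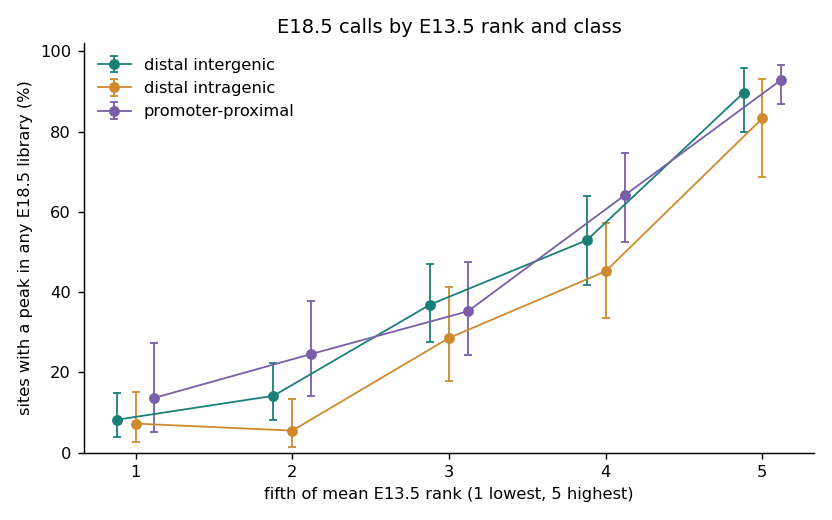
Percent of sites with a peak in any E18.5 library by quintile of mean E13.5 rank for the 3 site classes, with exact 95% intervals. Distal intergenic sites go from 8.18% in the lowest quintile to 89.7% in the highest, and their interval overlaps those of both other classes in each quintile.

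Among distal intergenic sites, those with a full-length RE1 were called at E18.5 more often than those without. The shares were 39.4% with an RE1 (121 of 307) and 28.5% without (47 of 165), an odds ratio of 1.63 (1.07 to 2.52), with p = 0.0204 in a two-sided Fisher exact test. This difference lost its call without E18.5 A (odds ratio 1.44, exact p = 0.158), without E18.5 C (1.42, exact p = 0.101) and within quintiles of E13.5 rank (1.54, exact p = 0.0992), and at scores of 13 or more it turned round (0.588, exact p = 0.304).

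By form of element, 29 of 49 sites with 0 to 2 mismatches were called at E18.5 (59.2%, 44.2 to 73.0). This was 45.9% of 61 sites with 3 mismatches, 35.7% of 98 with 4 and 29.3% of 99 with 5. Split elements, at 22 of 53 (41.5%, 28.1 to 55.9), stood between the full-length forms, and sites with neither had 25 of 112 (22.3%, 14.996 to 31.2). Both perfect elements were called: the site near Rapgef1, a Ras-family exchange factor gene, scored 5, 5 and 6 in the E18.5 libraries and 28 and 34 at E13.5. The site near Lingo1, a neuronal receptor component gene, scored 11 in E18.5 A and 10 in C, with no peak in B, and 30 and 30 at E13.5. The median E13.5 rank moved the same way, from 59.5 at 0 to 2 mismatches to 43.4 at 5 mismatches and 39.0 with neither, and its part in these shares is covered only by the stratified test above.

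**Figure D5:**
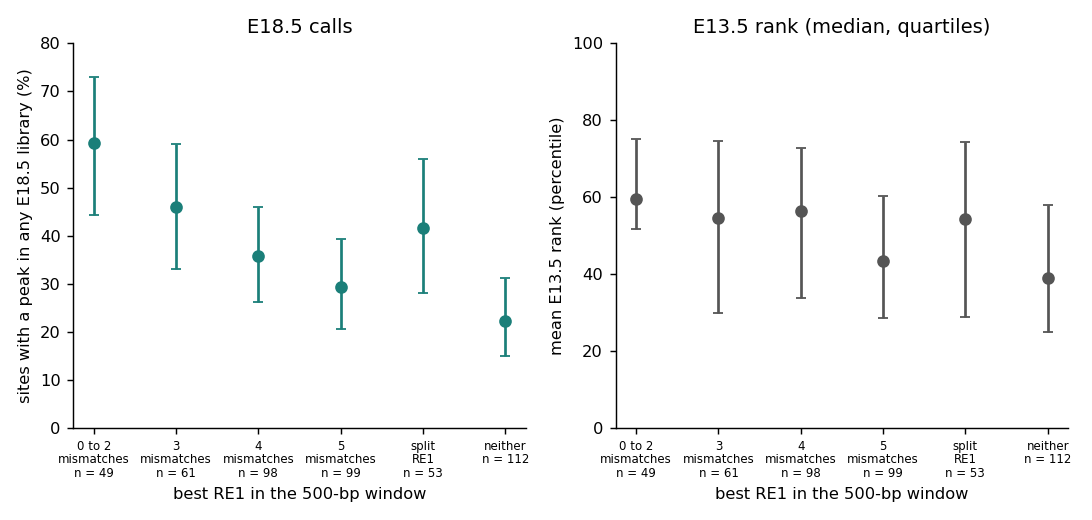
Distal intergenic sites by their best RE1 in the 500-bp window, with the number of sites under each form. Left, percent with a peak in any E18.5 library and exact 95% intervals, from 59.2% at 0 to 2 mismatches to 22.3% with neither form. Right, median and quartiles of the mean E13.5 rank.

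Sites nearer to a start were called at E18.5 more often than remote ones. The share was 41.5% of 53 sites at 5 to 10 kb, 45.6% of 79 at 10 to 25 kb, 47.2% of 72 at 25 to 50 kb, 34.5% of 87 at 50 to 100 kb, 27.3% of 110 at 100 to 250 kb, 22.4% of 49 at 250 to 500 kb and 22.7% of 22 beyond. Median E13.5 rank went with distance as well, from 59.5 in the nearest bin to 29.0 in the farthest, and its part in the distance series was not tested. The RE1 share did not fall steadily with distance. It was 66.0% in the nearest bin, 67.1% at 10 to 25 kb and 54 of 72 sites at 25 to 50 kb. Farther out it was 59.8% at 50 to 100 kb, 62.7% at 100 to 250 kb and 67.3% at 250 to 500 kb. The lowest share was 11 of 22 sites, in the farthest and smallest bin.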

How the data were processed

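For E13.5, the authors aligned 50-bp single-end reads to mm9 with Bowtie2 2.2.5 (1 mismatch, mapping quality of 10 or more), handled them with SAMtools and called peaks against input with MACS2 2.1.0. The submitters' processing notes name the same tools for E18.5, with no further settings. The study describes calls on pooled replicates, whereas the deposited lists hold 1 library each and are named for a false discovery rate of 10% and removed duplicates. The deposited score is the authors' whole number per peak, with no unit given, and was used as ranks only. Peaks overlapping by 1 bp or more were merged over the 5 lists. Left out were 3 sites of both E13.5 lists on unplaced sequence. Depth per library is unknown, and exact 95% intervals cover counting error only.

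The consensus was learned de novo from 8-base seeds in 200-bp windows of the other classes, and the procedure was tested on simulated data. Python 3.11.15, SciPy 1.17.1 and pysam 0.24.0 were used, and exact stratified tests were run in R 4.3.3. Libraries of a stage are separate pools of embryos, and no test compared libraries.

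Members, gene lists and tests were chosen with earlier results of these data known. Sites were named by rule: the 12 highest E13.5 ranks, up to 3 further per family, 2 on each side of the 5 kb limit, the 3 farthest, those within 25 kb of a microRNA gene, and groups of 3 or more within 100 kb. Sites showing an element form or occupancy, Ptf1a and Pcsk2 were named after their values were seen. Alternatives changed the distance limit, annotation, overlap, score limit, RE1 search, gene assignment and libraries used.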

Additional observations from a re-analysis of the deposited data

How the results depend on the processing

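Of 84 alternatives to the 5 tests, 69 kept direction and side of the threshold. The number of distal intergenic sites was 268 with a limit of 50 kb, 263 at scores of 13 or more and 48 with each list cut to the size of the shortest, and 529 to 569 with 1 E13.5 library. For the RE1 share against promoter-proximal sites, the odds ratio was 0.878 with a limit of 50 kb, 0.979 with split RE1s counted, 1.56 with 6 mismatches (passing) and 1.49 within quintiles of rank (passing). Against distal intragenic sites it was 0.691 with 4 mismatches (passing). For E18.5 calls against promoter-proximal sites it was 0.452 with lists of equal size and 0.711 within quintiles of rank, both not passing, and 0.286 to 0.529 leaving out 1 library at a time. Against distal intragenic sites it was 0.613 at scores of 13 or more and 0.743 with lists of equal size. Between distal intergenic sites with and without an RE1 it was 0.588 at scores of 13 or more, and did not pass at 1.83 with lists of equal size, 1.27 with 6 mismatches or 1.54 within quintiles of rank, with a range of 1.42 to 2.18 leaving out 1 library. The share of sites near adhesion genes was 4.66% by regulatory domain. Fewer sites entered the stricter settings, and otherwise the cause was not tested. Nearest-edge distance, split RE1s and the stratified RE1 test were chosen after seeing the data. Repeat-masked sequence was not run, since the reference letters are unmasked. No paired analysis was possible because no test compared libraries of the 2 stages. Unknown depth limits every statement on missing peaks, and 1 list per pool limits the comparison to these libraries.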
